A study of Mus musculus with 16 samples.

Results

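The transcription factor gene *Nfe2l2*, 7 genes known as targets of its product NRF2 (*Nqo1*, *Srxn1*, *Gclc*, *Gclm*, *Txnrd1*, *G6pdx* and *Hmox1*) and the metallothionein genes *Mt1* and *Mt2* were followed through the livers of mice with and without a knockdown (KD) of the receptor FGFR4. These 10 genes were chosen by symbol from a table of 52143 genes, and all 10 were among the 11324 genes high enough to be tested. RNA came from livers of male C57BL6/J mice, 4 mice in each of 4 groups, which started at 6 weeks of age on chow or a high-fat diet (HFD, 60% fat) for 12 weeks. The groups Chow and HFD were injected with saline every 2 weeks, and the groups Chow/FGFR4 KD and HFD/FGFR4 KD received 3 mg/kg of an siRNA against *Fgfr4* on the same schedule. The siRNA carried N-acetylgalactosamine, a sugar bound by a receptor of hepatocytes, so the knockdown was aimed at that cell type and not at other cells of the liver. No group received another siRNA, so an effect of siRNA as such and the loss of FGFR4 cannot be told apart.

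NRF2 is held in the cytoplasm and marked for degradation by KEAP1. When oxidants or electrophiles modify KEAP1, NRF2 accumulates, pairs with a small MAF protein and binds antioxidant response elements (AREs) near genes for glutathione synthesis, the thioredoxin system, NADPH supply and detoxication. Metallothioneins are small proteins rich in cysteine that bind zinc and copper, and in liver their genes are known to respond to zinc through MTF1 at metal response elements (MREs), to glucocorticoids and to the acute-phase response.

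The starts of *Mt1* and *Mt2*, which lie side by side on chromosome 8 and gave the widest range of values, are shown because their levels moved together. Both are from RefSeq (GRCm38.p6, plus strand, 250 bases before to 30 after the annotated start, chr8:94172368-94172647 for *Mt2* and chr8:94178839-94179118 for *Mt1*). Capitals mark matches to the ARE core TGACNNNGC and the MRE cores TGCACNC and TGCGCNC on either strand.
Mt2: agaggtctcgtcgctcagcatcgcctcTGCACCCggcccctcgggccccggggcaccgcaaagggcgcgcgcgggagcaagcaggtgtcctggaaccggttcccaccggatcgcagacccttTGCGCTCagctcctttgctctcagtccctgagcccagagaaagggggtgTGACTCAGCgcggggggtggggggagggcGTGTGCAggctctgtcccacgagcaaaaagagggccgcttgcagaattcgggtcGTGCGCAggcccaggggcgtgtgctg
Mt1: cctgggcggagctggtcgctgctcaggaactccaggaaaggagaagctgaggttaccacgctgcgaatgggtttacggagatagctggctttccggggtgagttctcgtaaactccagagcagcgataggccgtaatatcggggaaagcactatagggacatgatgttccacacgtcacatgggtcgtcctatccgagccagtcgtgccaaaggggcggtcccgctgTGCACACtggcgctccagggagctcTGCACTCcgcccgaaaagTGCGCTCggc
The *Mt2* stretch holds 4 MRE cores and the ARE core TGACTCAGC, whose first base is at -79. The *Mt1* stretch holds 3 MRE cores, with first bases at -23, 3 and 21 from the annotated start, and no ARE core within the stretch. Of 32851 promoter windows of 300 bases in the RefSeq table, 12.4% held an ARE core, 25.7% held an MRE core, 1.97% held 3 or more MRE cores and 0.517% held 4 or more. Windows were found for 8 of the 10 genes, all but *Gclc* and *Hmox1*. An ARE core was matched in 6 of them (*Nfe2l2*, *Srxn1*, *Gclm*, *Txnrd1*, *G6pdx* and *Mt2*), and an MRE core in 5 (*Srxn1*, *Gclm*, *G6pdx*, *Mt1* and *Mt2*). A match is a description of the letters and not evidence of binding. The lack of a match covers only the window around the annotated start, and bases beyond it were not searched.

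*Fgfr4* was between 21.8 and 36.3 CPM (counts scaled to library size with TMM factors) in the 8 saline libraries and between 2.43 and 6.17 CPM in the 8 KD libraries and so followed the labels. Its log2 change was -2.62 on chow (SE 0.263, adjusted p 0.000223) and -2.78 on HFD (SE 0.270, adjusted p 9.06e-05). Hepatocyte markers were high in every library. Chow/FGFR4 KD 4 stood apart by its acute-phase genes. The summed level of 10 such genes was 28200 CPM there and between 6900 and 10900 CPM in the other 15 libraries. HFD/FGFR4 KD 1, picked with earlier results of these data known, was left out together with it in an alternative. Both are called libraries that stand apart below.

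Per kilobase of transcript, the mean level of the 10 genes in Chow ran from 154 CPM per kb for *Gclm* down to 1.11 CPM per kb for *G6pdx*. *Gclc*, the catalytic subunit of the enzyme that makes the first step of glutathione synthesis, had 73.8 CPM per kb beside its modifier subunit *Gclm*. The lengths used were 3423 bases for *Gclc* and 1002 bases for *Gclm*, the latter a median of 5 annotated coding transcripts. In CPM the Chow means were 253 for *Gclc* and 154 for *Gclm*, so the order of the 2 rests on the lengths. *Mt1* had 108 and *Mt2* had 80.3 CPM per kb in Chow, 400 and 417 in Chow/FGFR4 KD, 30.4 and 15.4 in HFD, and 30.8 and 20.7 in HFD/FGFR4 KD. *Nqo1*, a quinone reductase often used as a readout of NRF2, was at 2.66 CPM per kb in Chow and 5.90 in HFD, and its estimated counts were between 6 and 85 per library. *G6pdx*, which makes NADPH in the first step of the pentose phosphate pathway, rested on 5 to 23 counts. Of its 31-base transcript words, 12.6% also occur in *G6pd2*, so reads could be split between them, although *G6pd2* was at 0 counts in every library. For *Gclm* 5.61% of the words occur in other genes, 3.55% in *Ppia*. The estimated counts of *Gclm* were not whole numbers in any library, so its level carries this limit as well.

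**Figure D1:**
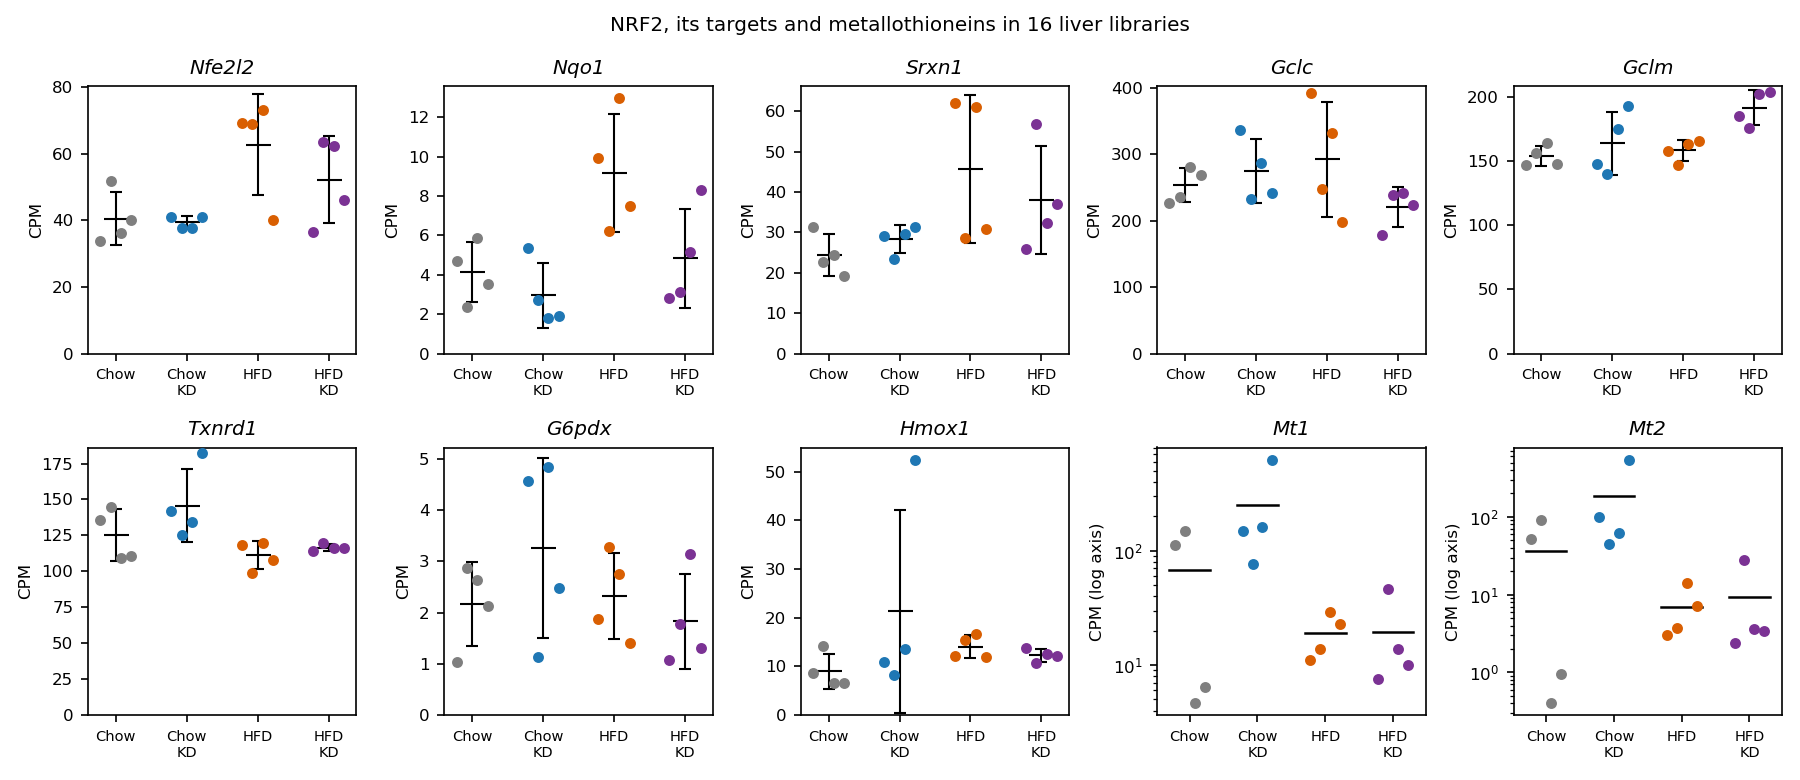
Level of each of the 10 genes in the 16 liver libraries, in CPM on linear axes that start at 0 and, for *Mt1* and *Mt2*, on log axes. Each point is 1 library, horizontal bars are means of 4 libraries and whiskers are SD (not drawn for *Mt1* and *Mt2*). *Nqo1* lay between 6.21 and 13.0 CPM in HFD and at or below 5.88 CPM in Chow, and *Mt1* reached 627 CPM in Chow/FGFR4 KD 4.

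HFD against Chow shows how the diet changed the genes in saline-injected mice. *Nfe2l2*, *Nqo1* and *Srxn1* rose, by 1.55-fold, 2.18-fold and 1.78-fold, and none of the 10 was called lower. A gene was called by limma-voom where its p was below 0.05 and its p adjusted over all genes (Benjamini-Hochberg) was below 0.25. Over all genes tested 13.3% were called higher and 12.7% lower, so the 3 of 10 called higher and the 0 of 10 called lower stand beside these shares. Below an adjusted p of 0.05 limma-voom called none of the 10, against 9.20% of all genes, while these 3 had an unadjusted p under 0.05, as did 2939 of 11324 genes. At that limit edgeR called 2 (*Nfe2l2* and *Srxn1*) and DESeq2 called all 3. The groups did not overlap for 1 gene of the 10, *Nqo1*, against 16.1% of all genes.

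*Nfe2l2* (ENSMUSG00000015839, chromosome 2, 75675513 to 75704641, minus strand) encodes NRF2. It was at 33.8, 51.7, 36.3 and 40.0 CPM in Chow 1 to 4 and at 69.2, 68.8, 73.1 and 40.0 CPM in HFD 1 to 4. Libraries HFD 1 to 3 lay above every Chow library, and HFD 4 lay within the Chow range. The log2 change was 0.63 (SE 0.198, 95% interval 0.21 to 1.05, adjusted p 0.0554). *Nqo1* (ENSMUSG00000003849, chromosome 8, 107388225 to 107403206, minus strand) was at 4.72, 2.35, 5.88 and 3.55 CPM in Chow and at 9.94, 6.21, 13.0 and 7.47 CPM in HFD. All 4 HFD libraries were higher than all 4 Chow libraries. Its log2 change was 1.12 (SE 0.351, 95% interval 0.38 to 1.86, adjusted p 0.0542). *Srxn1* (ENSMUSG00000032802, chromosome 2, 152105516 to 152111376, plus strand) encodes sulfiredoxin, which restores overoxidised peroxiredoxins. It was at 31.4, 22.7, 24.5 and 19.2 CPM in Chow and at 62.1, 28.6, 61.0 and 30.9 CPM in HFD. HFD 1 and HFD 3 were far above Chow, whereas HFD 2 and HFD 4 lay within its range. For *Srxn1* the log2 change was 0.83 (SE 0.277, 95% interval 0.25 to 1.42, adjusted p 0.0687).

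The remaining NRF2 targets were not called with HFD in saline-injected mice. *Hmox1*, the heme oxygenase that degrades heme to biliverdin, iron and carbon monoxide, was at 8.95 ± 3.56 CPM (SD, n = 4) in Chow and 14.1 ± 2.39 CPM in HFD, a log2 change of 0.74 (95% interval -0.15 to 1.63, adjusted p 0.285). It passed with an adjusted p of 0.0357 when Chow/FGFR4 KD 4, which is in neither group, was left out of the fit. The fit shares its spread over all groups. The adjusted p was 0.297 without HFD/FGFR4 KD 1 alone and 0.0373 without both libraries. *Gclc* (0.16, 95% interval -0.21 to 0.54), *Gclm* (0.05, -0.15 to 0.24), *Txnrd1* (-0.16, -0.40 to 0.08) and *G6pdx* (0.15, -0.81 to 1.11) had log2 changes with intervals across 0. *Gclm* was the most evenly measured, at 147, 156, 164 and 148 CPM in Chow and 158, 147, 163 and 166 CPM in HFD. The call of the 3 genes was kept in each of the 8 fits without 1 library of these groups. The median log2 change of all genes was 0.29 with scaling by library totals and 0.01 with TMM, and with library totals *Gclm* (0.32) and *Hmox1* (0.99) were called higher as well. The metallothioneins had lower means in HFD without being called, 68.4 CPM in Chow and 19.2 CPM in HFD for *Mt1* and 36.2 and 6.95 CPM for *Mt2*. Their log2 changes were -0.56 (95% interval -2.69 to 1.58, adjusted p 0.771) and -0.18 (-3.51 to 3.15, adjusted p 0.953) with limma-voom, and -1.83 (adjusted p 0.208) and -2.36 (0.210) with edgeR, each with an unadjusted p above 0.05, so the size depended on the tool. For both genes every HFD library lay above Chow 3 and Chow 4 and below Chow 1 and Chow 2, so the Chow means hide a split within that group.

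Markers of macrophages moved with the same comparison. Of 10 such genes 9 were called higher, beside 13.3% of all genes, with a median log2 change of 1.08. Their summed level was between 73.3 and 80.0 CPM in Chow and between 133 and 228 CPM in HFD. None of the 10 was at 0 in any library. The summed level of 6 erythroid markers was 273 to 525 CPM in Chow and 512 to 933 CPM in HFD, and 4 globin genes among them were called higher while *Alas2*, which begins heme synthesis in red cell precursors, was called lower (116 ± 9.53 to 86.7 ± 20.8 CPM (SD, n = 4), log2 change -0.45, adjusted p 0.0561). In bulk liver, more cells of a type and more RNA per cell cannot be told apart. The part of macrophages and blood in the levels of *Nfe2l2*, *Nqo1* and *Srxn1* was not tested.

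HFD/FGFR4 KD against Chow/FGFR4 KD shows the same diet in KD mice. Here *Mt1*, *Mt2* and *Txnrd1* fell and *Gclm* rose. Of the 10 genes 4 were called, 3 lower and 1 higher, beside 20.2% of all genes tested, with 10.1% lower and 10.1% higher. None of the 10 was called by limma-voom at an adjusted p under 0.05, against 3.10% of all genes, and the same 4 had an unadjusted p under 0.05, as did 2293 of 11324 genes. Both edgeR (adjusted p 0.0383 for *Mt1* and 0.0484 for *Mt2*) and DESeq2 (0.00623 and 0.0183) called the metallothioneins at that limit. The groups did not overlap for 3 genes, *Txnrd1*, *Mt1* and *Mt2*, against 11.5% of all genes.

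*Mt1* (ENSMUSG00000031765, chromosome 8, 94179082 to 94180327, plus strand) was at 148, 76.1, 162 and 627 CPM in Chow/FGFR4 KD 1 to 4 and at 7.59, 46.3, 13.9 and 10.1 CPM in HFD/FGFR4 KD 1 to 4. *Mt2* (ENSMUSG00000031762, chromosome 8, 94172664 to 94173568, plus strand) was at 98.9, 44.8, 62.1 and 544 CPM and at 2.38, 27.9, 3.65 and 3.37 CPM. For both genes every HFD/FGFR4 KD library was lower than every Chow/FGFR4 KD library, although HFD/FGFR4 KD 2 came close to Chow/FGFR4 KD 2. *Mt1* fell by 3.60 on the log2 scale (SE 0.998, adjusted p 0.0613), to 8.23% of its level on chow. *Mt2* fell by 4.35 (SE 1.37, adjusted p 0.0917), to 4.90%. Both calls were kept without any 1 of the 8 libraries, with log2 changes from -4.11 to -3.01 for *Mt1* and from -5.09 to -3.61 for *Mt2*. With Chow/FGFR4 KD 4 and HFD/FGFR4 KD 1 both left out they were -2.69 and -3.25, each with an adjusted p of 0.153.

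*Txnrd1* (ENSMUSG00000020250, chromosome 10, 82833951 to 82897712, plus strand), the cytosolic thioredoxin reductase, was at 142, 125, 134 and 182 CPM in Chow/FGFR4 KD and at 114, 120, 116 and 116 CPM in HFD/FGFR4 KD. The groups were separate, with Chow/FGFR4 KD 4 the highest. Its log2 change was -0.31 (SE 0.116, adjusted p 0.146). Without Chow/FGFR4 KD 4 it was -0.20 (adjusted p 0.337), and without HFD/FGFR4 KD 4 it was -0.31 (adjusted p 0.262), so the call was lost in both cases. *Gclm* (ENSMUSG00000028124, chromosome 3, 122245557 to 122270732, plus strand) was at 148, 140, 175 and 193 CPM and at 185, 176, 202 and 204 CPM. These groups overlapped, the highest Chow/FGFR4 KD library lying above the 2 lowest HFD/FGFR4 KD libraries. The log2 change was 0.24 (SE 0.0944, adjusted p 0.172), and the call was lost without Chow/FGFR4 KD 1 (0.18), Chow/FGFR4 KD 2 (0.16), HFD/FGFR4 KD 3 (0.21) or HFD/FGFR4 KD 4 (0.20).

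The 3 genes that rose with HFD in saline-injected mice were not called in KD mice. Their log2 changes there were 0.37 (95% interval -0.06 to 0.81) for *Nfe2l2*, 0.58 (-0.38 to 1.55) for *Nqo1* and 0.37 (-0.23 to 0.96) for *Srxn1*. Without HFD/FGFR4 KD 1 the change of *Nfe2l2* was 0.53 with an adjusted p of 0.124, which passed. The test of whether the diet acted differently in saline and KD mice is the same as that of the KD effects between diets and is given with them. The summed level of the macrophage markers was 90.4 to 122 CPM in Chow/FGFR4 KD and 109 to 191 CPM in HFD/FGFR4 KD. Of the 10 markers 2 (*Csf1r* and *Cd5l*) were called higher, beside 10.1% of all genes. Without HFD/FGFR4 KD 1 it was 8 of 10, and 7 without both libraries that stand apart. The share of all genes called in these refits is not given here, so the larger counts have no background. The part of macrophages in the values of the 10 genes was not tested.

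**Figure D2:**
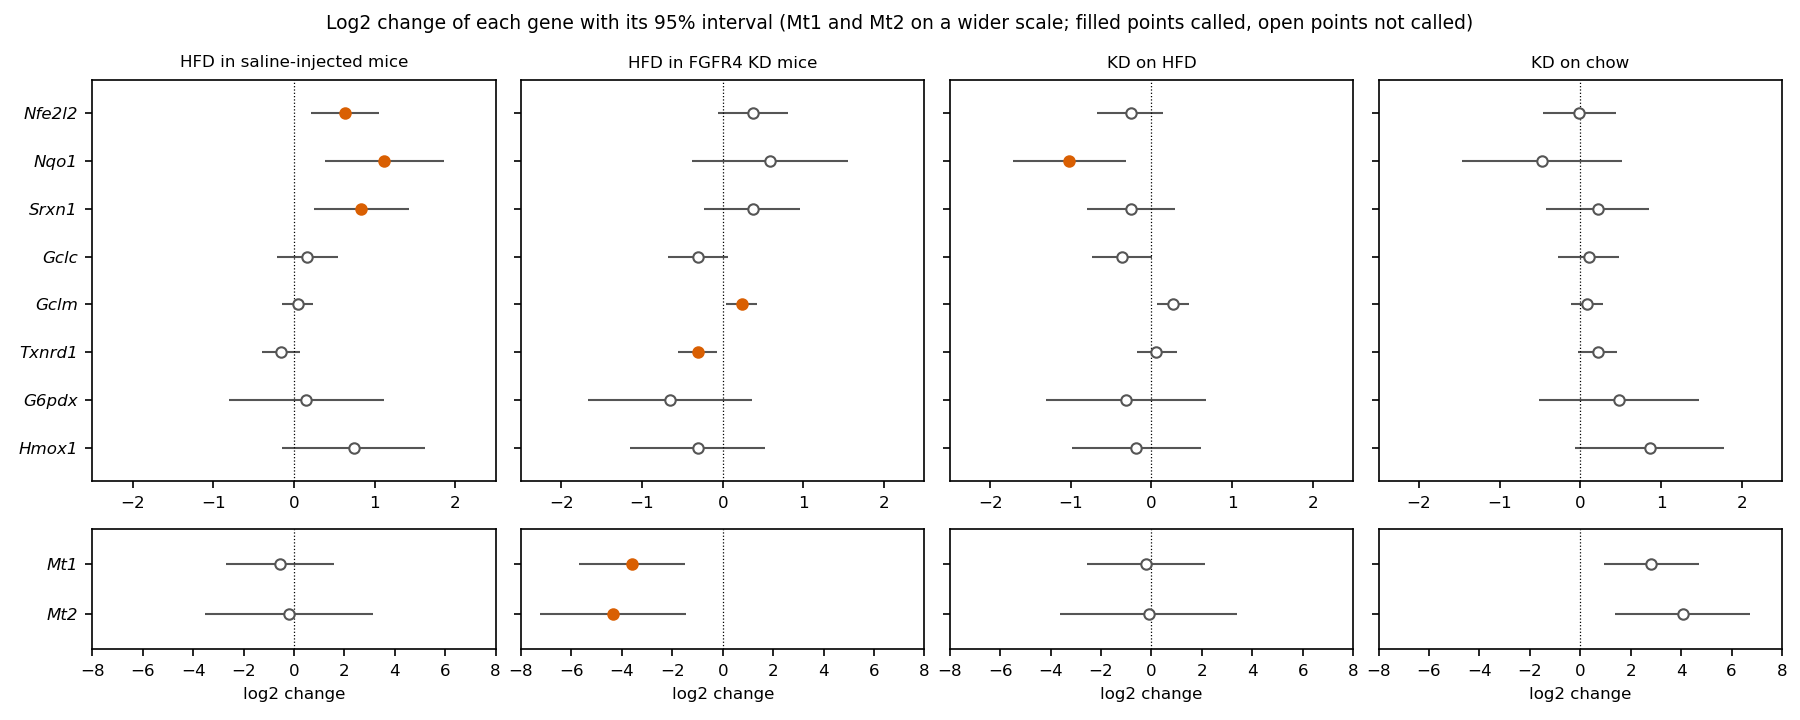
Log2 change (x axis) of each of the 10 genes (y axis) in 4 comparisons, with 95% intervals as lines and n = 4 libraries per group. Filled points are called and open points are not. In saline-injected mice the called points are *Nfe2l2*, *Nqo1* and *Srxn1* to the right of 0, in KD mice *Gclm* to the right and *Txnrd1*, *Mt1* and *Mt2* to the left.

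HFD/FGFR4 KD against HFD shows the effect of the knockdown in mice on the high-fat diet. *Nqo1* was the only gene of the 10 called, and it fell to 49.4% of its level in HFD. This 1 of 10 stands beside 3.14% of all genes tested, 1.64% of them lower. None of the 10 was called at an adjusted p under 0.05 by limma-voom, edgeR or DESeq2, against 0.274% of all genes by limma-voom, and 2 had an unadjusted p under 0.05 (*Nqo1* and *Gclm*), beside 11.0% of all genes. The median log2 change of the 10 was -0.24, with 2 above 0, beside a median of 0.00 over all genes.

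*Nqo1* was at 9.94, 6.21, 13.0 and 7.47 CPM in HFD and at 2.82, 3.10, 5.15 and 8.29 CPM in HFD/FGFR4 KD. HFD/FGFR4 KD 1 to 3 lay below every HFD library, and HFD/FGFR4 KD 4 lay within the HFD range. With KD its log2 change was -1.02 (SE 0.331, 95% interval -1.72 to -0.32, adjusted p 0.237). Over the 4 groups its mean level was 9.16 ± 3.01 CPM (SD, n = 4) in HFD, 4.84 ± 2.52 in HFD/FGFR4 KD, 4.12 ± 1.52 in Chow and 2.96 ± 1.65 in Chow/FGFR4 KD, and only the first step of that order exceeded the spread. The call was near its threshold. It was lost with edgeR (adjusted p 0.361), with DESeq2 (0.306) and in 7 of the 8 fits without 1 library, where the log2 change ran from -1.26 to -0.82, and was kept only without HFD 2. With both libraries that stand apart left out it was -0.82 (adjusted p 0.464).

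*Gclm* was at 158, 147, 163 and 166 CPM in HFD and at 185, 176, 202 and 204 CPM in HFD/FGFR4 KD. All 4 KD libraries were higher than all 4 HFD libraries, which was the case, in either direction, for 6.49% of all genes and for no other gene of the 10. The log2 change was 0.27 (SE 0.0939, 95% interval 0.07 to 0.47) with an adjusted p of 0.283, and it passed with DESeq2 (adjusted p 0.212) and with library quality weights (0.165). *Gclc* (ENSMUSG00000032350, chromosome 9, 77754535 to 77794485, plus strand), the partner of *Gclm* in the same enzyme, was at 392, 247, 332 and 198 CPM in HFD and at 178, 239, 242 and 224 CPM in HFD/FGFR4 KD. Its HFD libraries were widely spread and overlapped those with KD. The log2 change was -0.36 (SE 0.177, adjusted p 0.470), and without HFD 4 it was -0.54 (adjusted p 0.237), which passed.

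The other 7 genes were not called with KD on HFD. The 95% intervals of the log2 change were -0.67 to 0.14 for *Nfe2l2*, -0.80 to 0.29 for *Srxn1*, -0.18 to 0.31 for *Txnrd1*, -0.99 to 0.61 for *Hmox1* and -1.31 to 0.67 for *G6pdx*. Those of *Txnrd1* and *Nfe2l2* were the narrowest. For *Mt1* (-2.57 to 2.11) and *Mt2* (-3.61 to 3.41) they were so wide that neither a rise nor a fall was detectable at this spread, and the sign of the estimate changed with the tool.

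Chow/FGFR4 KD against Chow shows the knockdown without the diet. None of the 10 genes was called by limma-voom, edgeR or DESeq2. Over all genes 0.00883% were called by limma-voom, which is *Fgfr4* alone, and the same 0.00883% at an adjusted p under 0.05. *Mt1* and *Mt2* were the 2 of 10 with an unadjusted p under 0.05, beside 4.58% of all genes. No gene of the 10 had groups that did not overlap, against 2.52% of all genes.

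*Mt1* was at 113, 149, 4.67 and 6.39 CPM in Chow 1 to 4 and *Mt2* at 52.5, 90.8, 0.406 and 0.947 CPM. Chow 1 and Chow 2 were as high as the lower Chow/FGFR4 KD libraries, and Chow 3 and Chow 4 were the lowest 2 of the 16 libraries for both genes. *Mt2* rested on 256, 348, 2 and 4 estimated counts in these libraries, so Chow 3 was under the floor of 3 counts. The log2 change with KD on chow was 2.82 for *Mt1* (SE 0.889, 95% interval 0.94 to 4.69, adjusted p 0.976) and 4.07 for *Mt2* (SE 1.27, 95% interval 1.39 to 6.75, adjusted p 0.976). With edgeR they were 1.89 and 2.39. Over the 8 fits without 1 library the change ran from 1.93 to 3.61 for *Mt1* and from 2.68 to 5.17 for *Mt2*.

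*Hmox1* (ENSMUSG00000005413, chromosome 8, 75093621 to 75100589, plus strand) was at 8.61, 14.1, 6.49 and 6.63 CPM in Chow and at 10.9, 8.23, 13.6 and 52.4 CPM in Chow/FGFR4 KD. Chow/FGFR4 KD 4 was 3.85 times the next library, and the other 3 lay within the Chow range. The log2 change was 0.86 (SE 0.437, adjusted p 0.976), and without Chow/FGFR4 KD 4 it was 0.33 (adjusted p 0.999). With edgeR and with DESeq2 it was 1.24. *Txnrd1*, at 136, 145, 109 and 111 CPM in Chow, had a log2 change of 0.22 (95% interval -0.03 to 0.46). Its levels in Chow 1 and 2, the libraries with high metallothioneins, were above those in Chow 3 and 4. The 95% intervals of *Nfe2l2* (-0.46 to 0.44), *Gclc* (-0.27 to 0.48) and *Gclm* (-0.12 to 0.28) were narrow around 0, and those of *Nqo1* (-1.47 to 0.52), *Srxn1* (-0.42 to 0.85) and *G6pdx* (-0.51 to 1.47) were wider.

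The test of the difference between the KD effects on the 2 diets called none of the 10 genes by limma-voom, edgeR or DESeq2, beside 0.0353% of all genes, and 0.00883% at an adjusted p under 0.05. *Mt1* was the 1 gene with an unadjusted p under 0.05, against 6.76% of all genes, with a difference of -3.05 (SE 1.42, 95% interval -6.05 to -0.04, adjusted p 0.730). For *Mt2* it was -4.17 (SE 2.09, 95% interval -8.58 to 0.25, adjusted p 0.739). Without Chow/FGFR4 KD 4 these differences were -2.46 and -3.42, and without both libraries that stand apart they were -2.14 and -3.06, with unadjusted p of 0.0821, 0.0677, 0.139 and 0.109. The difference for *Nqo1* was -0.54 (SE 0.575, 95% interval -1.75 to 0.68, adjusted p 0.894), so its call on HFD was not shown to differ from its change on chow. Nor were the HFD changes of *Nfe2l2* (-0.26, 95% interval -0.86 to 0.35) and *Srxn1* (-0.47, -1.30 to 0.37) shown to differ between saline and KD mice.

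Some of the libraries with high metallothioneins were also high in acute-phase genes. In Chow/FGFR4 KD 4, *Mt1* was 3.87 times and *Mt2* 5.50 times the next library of its group. The serum amyloid gene *Saa2*, an acute-phase gene, was at 2380 CPM there and between 3.13 and 118 CPM in the other 15 libraries, and *Lcn2* was at 356 CPM there and at most 19.5 CPM elsewhere. In Chow, *Saa1* was at 148 and 103 CPM in libraries 1 and 2 and at 11.5 and 30.3 CPM in libraries 3 and 4. Chow/FGFR4 KD 1 and 2, with *Mt1* at 148 and 76.1 CPM, had *Saa1* at 53.2 and 30.6 CPM, nearer to the libraries of Chow with low metallothioneins. Chow/FGFR4 KD 3, with *Mt1* at 162 CPM, had *Saa1* at 306 CPM, above every Chow library. *Fkbp5*, a target of the glucocorticoid receptor, was at 37.1 and 56.6 CPM in Chow 1 and 2 and at 18.6 and 18.2 CPM in Chow 3 and 4. Another such target, *Tsc22d3*, was at 118, 75.7, 87.8 and 129 CPM in Chow 1 to 4 and did not follow the metallothioneins there. Among the 8 HFD libraries with and without KD, *Mt1* was highest in HFD/FGFR4 KD 2. HFD 4 had the highest *Fkbp5*, 112 CPM, with *Mt1* at 22.8 CPM, and HFD/FGFR4 KD 1 had *Saa1* at 190 CPM with *Mt1* at 7.59 CPM. As a list, 10 acute-phase genes had a median log2 change of 0.64 with KD on chow and -0.53 with HFD in KD mice. None was called with KD on chow, beside 0.00883% of all genes. With HFD in KD mice 2 (*Crp* and *Fgb*) were called lower, beside 10.1% of all genes. Without Chow/FGFR4 KD 4 these medians were 0.12 and 0.25, with 0 called on chow and, in KD mice, 2 higher and 1 lower. The 8 glucocorticoid targets had 1 called higher (*Fkbp5*) and 4 lower (*Tat*, *Pck1*, *Dusp1* and *Sgk1*) with HFD in saline-injected mice. These stand beside 13.3% and 12.7% of all genes. In KD mice 2 were called lower (*Tat* and *Pck1*), beside 10.1% of all genes. Without Chow/FGFR4 KD 4 the count in KD mice was 1 higher and 1 lower, and without HFD/FGFR4 KD 1 it was 1 higher and 3 lower. The share of all genes called without these libraries is not given here. The part of the acute-phase and glucocorticoid responses in the metallothionein levels was not tested.

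**Figure D3:**
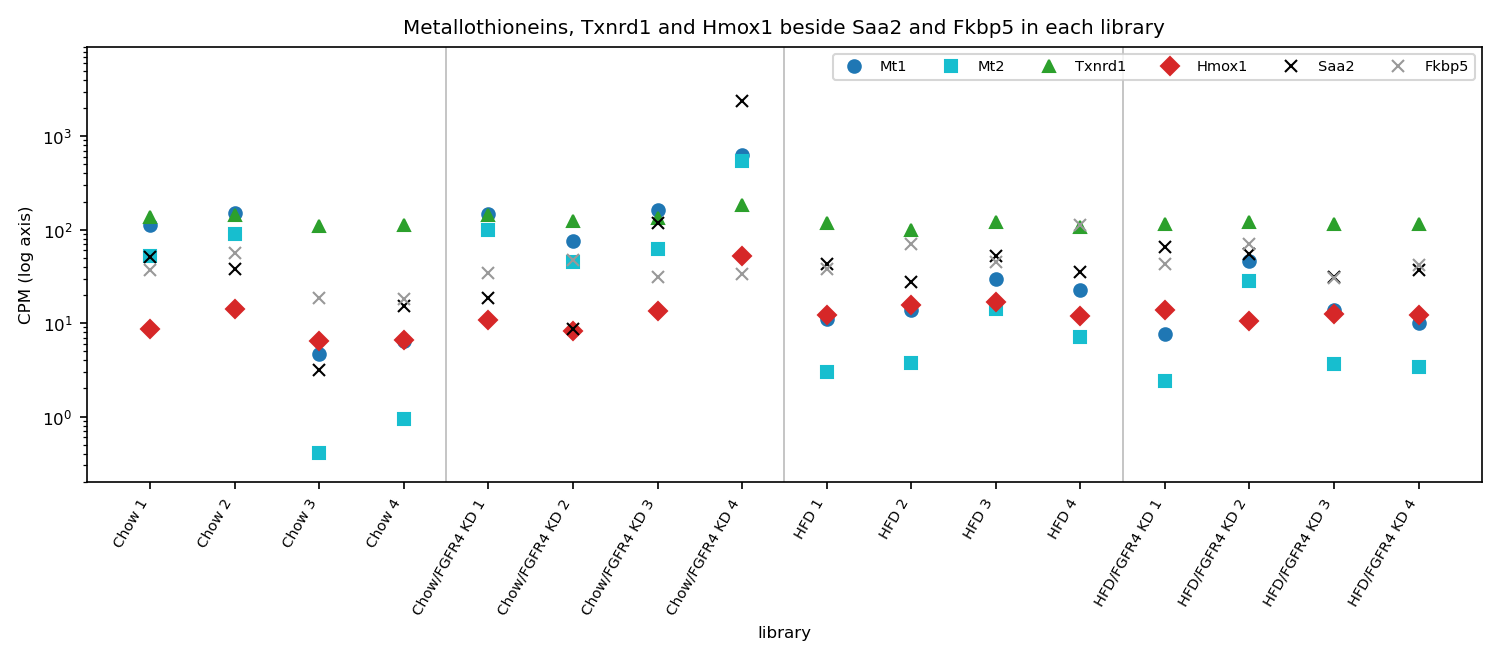
Level in CPM (log axis) of *Mt1*, *Mt2*, *Txnrd1* and *Hmox1*, and of the acute-phase gene *Saa2* and the glucocorticoid target *Fkbp5*, in each of the 16 libraries on the x axis, with grey lines between groups. *Mt1*, *Mt2*, *Hmox1* and *Saa2* were highest in Chow/FGFR4 KD 4, and *Mt1* and *Mt2* were lowest in Chow 3 and Chow 4.

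Across the 16 libraries, the gene most like *Mt1* in log2 CPM was *Mt2* (Pearson r 0.99, and 0.99 within groups after group means were taken out). Next were *Cldn14*, a tight junction claudin (0.97, and 0.93 within groups), and an entry named *Ptp4a1* (ENSMUSG00000117310; 0.91, and 0.90 within groups). The genes most like *Nqo1* were *Ppif* (0.89, and 0.79 within groups), which encodes the mitochondrial cyclophilin, *Smpdl3a* (0.89 and 0.83) and *Sod3* (0.88 and 0.77), the extracellular superoxide dismutase. Among the 45 pairs of the 10 genes, 9 had an r above 0.5 and 3 had an r below -0.5, all of them with *Nqo1* (*Mt1* -0.54, *Txnrd1* -0.52 and *Mt2* -0.51). The closest after *Mt1* and *Mt2* were *Txnrd1* with *Mt1* (0.89, and 0.82 within groups) and with *Mt2* (0.88 and 0.82). *Nfe2l2* was close to *Srxn1* (0.68, and 0.44 within groups) and less so to *Nqo1* (0.48, and -0.01 within groups). Gene pairs share libraries and depth, and these values are descriptions.

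Further genes of the pathway were followed in 8 lists of 74 genes, 67 of which could be tested. With HFD in saline-injected mice 15 were called higher and 8 lower, beside 13.3% and 12.7% of all genes, and the median log2 change was 0.10. In KD mice 5 were called higher and 10 lower, beside 10.1% and 10.1% of all genes, with a median of -0.04. With KD on HFD 2 were called, both lower, beside 1.64% of all genes, and 13 of the 67 were below 0.05 before adjustment, beside 11.0% of all genes. Without HFD/FGFR4 KD 1 none was called in that comparison, and without both libraries that stand apart 1 was called lower. With KD on chow and for the difference between the KD effects limma-voom called none, and 1 and 4 had an unadjusted p under 0.05. The counts are read against the share of all genes called.

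Among the 9 tested regulators of NRF2, HFD in saline-injected mice raised 4 and lowered 2. The small MAF partners rose. *Mafk* was at 8.38 ± 2.10 CPM (SD, n = 4) in Chow and 17.5 ± 2.61 CPM in HFD (log2 change 1.09, adjusted p 0.00877), and *Mafg* at 58.6 ± 3.42 and 78.7 ± 7.91 CPM (0.42, adjusted p 0.0147). *Bach1*, a repressor that competes for the same elements, fell by 0.56 on the log2 scale (adjusted p 0.114). The related factor *Nfe2l1* rose (0.22, adjusted p 0.109), as did *Maff* (1.02, adjusted p 0.144), and *Rbx1*, a subunit of the ligase that marks NRF2, fell by 0.23 (adjusted p 0.174). *Keap1* was at 35.2 ± 3.34 CPM in Chow, 37.2 ± 3.64 in Chow/FGFR4 KD, 38.8 ± 2.71 in HFD and 41.0 ± 4.98 in HFD/FGFR4 KD and was not called. In KD mice the diet raised *Mafg* (0.44, adjusted p 0.0262) and lowered *Bach1* (-0.81, adjusted p 0.0604).

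The enzymes around the 10 genes moved in both directions with HFD in saline-injected mice. In the glutathione list of 8 tested genes, the peroxidases *Gpx4* (0.57, adjusted p 0.0219) and *Gpx3* (1.21, adjusted p 0.187) rose and glutathione reductase *Gsr* fell by 0.29 (adjusted p 0.0587). In the thioredoxin list of 10, *Prdx3* rose (0.34, adjusted p 0.0473), and *Txnip*, which inhibits thioredoxin, and *Prdx5* fell, by 1.01 and 0.28. Of 6 genes of NADPH supply, *Taldo1* (0.25) and *Tkt* (0.43) of the pentose phosphate pathway rose. Among 16 detoxication genes the 2 genes called moved in opposite directions. *Gstp1* fell from 971 ± 228 to 215 ± 12.5 CPM (log2 change -2.14, adjusted p 0.000143), and *Gstm2* rose from 34.0 ± 8.81 to 82.1 ± 17.4 CPM (1.27, adjusted p 0.00851). Both belong to families of similar genes, between which reads could be split.

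Iron, superoxide and zinc genes were also counted. Of 6 genes of heme and iron handling 3 rose with HFD in saline-injected mice, the ferritin subunits *Fth1* (0.40, adjusted p 0.0270) and *Ftl1* (0.27, adjusted p 0.101) and the iron exporter *Slc40a1* (0.38, adjusted p 0.172), and *Hmox2* fell by 0.31. *Sod3* was the 1 of 4 superoxide and peroxide genes called (0.76, adjusted p 0.0227). In the list of zinc and metal handling, *Slc30a10* fell by 0.69 (adjusted p 0.0181), *Atp7b*, which exports copper into bile, rose (0.55, adjusted p 0.102), and *Mtf1*, the zinc sensor that acts on the metallothioneins, was not called (-0.25, 95% interval -0.53 to 0.04). *Mt3* and *Mt4* were too low to be tested.

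In KD mice the diet lowered thioredoxin *Txn1* (-0.22, adjusted p 0.0887), *Prdx1* (-0.16, adjusted p 0.206) and *Prdx5* (-0.31, adjusted p 0.129) and raised *Prdx6* (0.22, adjusted p 0.125). The detoxication genes *Gstp1* (-2.18), *Ugdh* (-0.52), *Ugt1a6a* (-0.24) and *Aox1* (-0.26) fell and *Gstm2* rose (1.01). *Gsr* (-0.25) and *Slc30a10* (-0.55) fell, and *Slc40a1* (0.58) and *Sod3* (0.47) rose. With KD on HFD the 2 genes called were the glucuronosyltransferase *Ugt1a6a*, from 150 ± 13.9 CPM in HFD to 117 ± 7.68 CPM in HFD/FGFR4 KD (log2 change -0.36, adjusted p 0.131), and the transporter *Abcc3*, from 290 ± 60.1 to 176 ± 41.3 CPM (-0.73, adjusted p 0.211). *Ugt1a6a* shares exons with other transcripts of its locus, so its counts are uncertain. Without HFD/FGFR4 KD 1 neither *Ugt1a6a* nor *Abcc3* was called with KD on HFD.

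**Figure D4:**
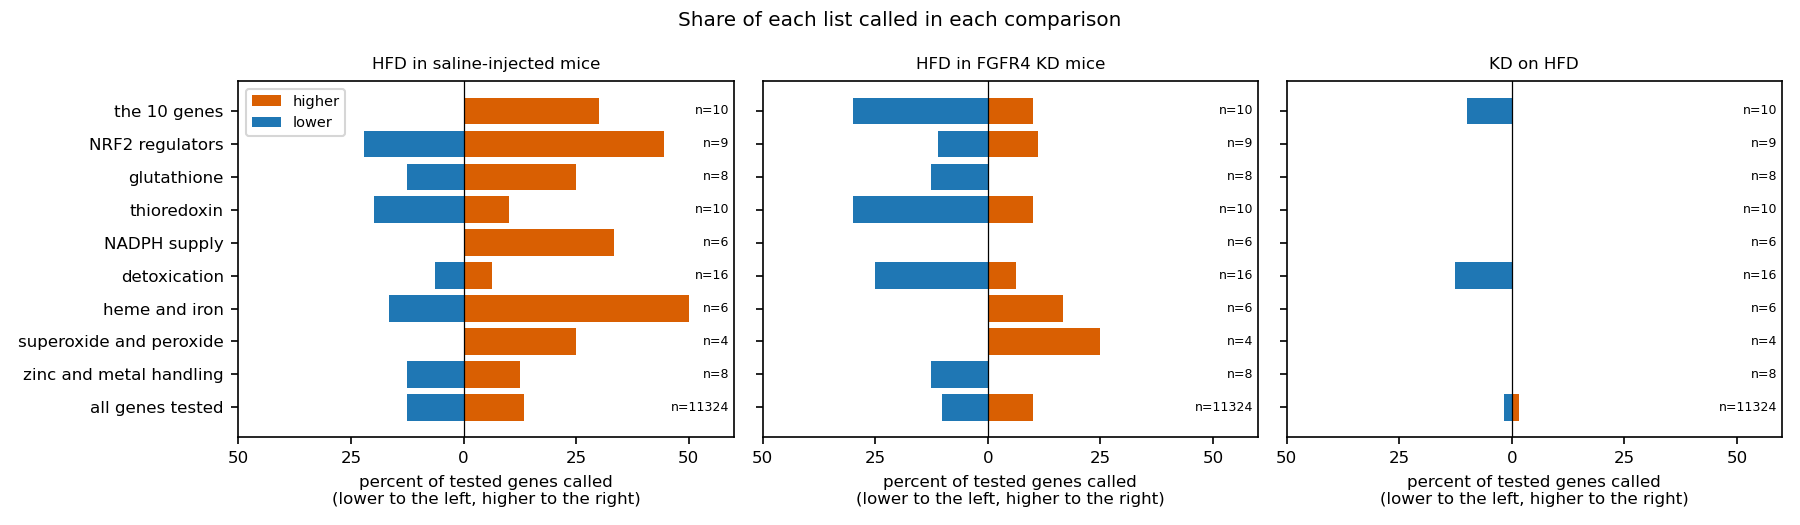
Percent of the tested genes of each list called higher (bars to the right) or lower (bars to the left) in 3 comparisons, with the number tested at the right of each row. The bottom row gives all 11324 genes tested. The regulators had 4 of 9 genes higher with HFD in saline-injected mice, beside 13.3% of all genes. For KD on HFD 7 of the 8 pathway lists have no called gene, beside 3.14% of all genes called. At that share lists of this size would mostly hold none.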

How the data were processed

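Liver RNA was extracted and sequenced for the study. The submitters' processing notes name fastp, kallisto and GRCm38, with no version. The labels name a KAPA mRNA kit and the study's methods the probe-based HTG EdgeSeq assay. Which was used was not settled here, and values per kilobase and shared words assume reads from whole transcripts. The values the authors deposited are estimated counts per gene that need not be whole, with no scaling or filter. Between 3445949 and 5976449 counts per library set the precision, and 3 counts were taken as a floor. All 16 columns were used and 0 were left over.

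Genes under 1 CPM in more than 4 libraries were left out. Counts were scaled with TMM factors (0.836 to 1.17, edgeR 4.0.16) and tested with limma-voom (limma 3.58.1, R 4.3.3), with a mean for each of the 4 groups and all 16 libraries sharing the spread. The calling threshold of the study was used, an unadjusted p below 0.05 together with a p adjusted over all genes (Benjamini-Hochberg) below 0.25. Tests are two-sided. As alternatives, DESeq2 1.42.0 (on rounded counts) and the quasi-likelihood test of edgeR were run, and limma-voom was refitted with other filters and scalings, with quality weights, with a replicate block, on the compared groups alone and without each library. Leaving out both libraries that stand apart, for genes and lists, was added after the data were seen. Nothing in the labels says more of the replicates than their number and group, so p-values measure the spread between these samples.

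The 10 genes and the lists were chosen with earlier results of these data known. Named were all 10, at most 4 called genes per list and comparison with the smallest p, any list gene needed to account for a count of 5 or fewer, and the 3 genes with the highest r (log2 CPM, prior count 2) to *Mt1* and *Nqo1*. *Saa1*, *Saa2*, *Lcn2*, *Fkbp5*, *Tsc22d3*, *Keap1*, *Mtf1*, *Mt3* and *Mt4* were named after their values were seen. Positions are from GENCODE on GRCm38. Promoters were searched with Python 3.11.15. The scripts were tested on simulated data. The 24 pairs of libraries within groups differed by more than sampling noise, so none was a copy.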

Additional observations from a re-analysis of the deposited data

Results flagged for a closer look

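Among the 40 sets of 4 libraries (10 genes in 4 groups), 6 held a library whose gap to its nearest neighbour, divided by the range of the group, was above Dixon's 95% value for 4 samples, where chance gives about 1 in 20, or 2. High values of 3 genes came from the same library, Chow/FGFR4 KD 4, with *Hmox1* at 52.4 CPM, *Mt1* at 627 CPM and *Mt2* at 544 CPM. In HFD/FGFR4 KD 2, *Mt1* was at 46.3 CPM and *Mt2* at 27.9 CPM, above the other libraries of that group. *Nfe2l2* was at 40.0 CPM in HFD 4, below the other HFD libraries. *Mt1* and *Mt2* moved together in all 16 libraries, so their flags are not independent.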

How the results depend on the processing

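With KD on HFD the main count of called genes was 1. The count was 0 at an adjusted p under 0.05, with edgeR, without a filter, with library totals, in a fit of only the groups compared and with both libraries that stand apart left out. It was 2 (*Nqo1* and *Gclm*) with library quality weights or the replicate block. Without 1 library of the groups compared the count ran from 0 to 1. Without Chow/FGFR4 KD 4, which is in neither group but shares the fit, it was 2 (*Nqo1* and *Gclm*). With HFD in saline-injected mice (3) it was 0 at an adjusted p under 0.05 and 5 with library totals. With HFD in KD mice (4) it was 0 at an adjusted p under 0.05 and from 2 to 5 without 1 library, 2 without HFD/FGFR4 KD 4. No other setting moved a count by over 1.5 times.

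Signs changed in 13 values under other settings. Library totals gave -0.01 for *Txnrd1* with KD on HFD, 0.12 for it with HFD in saline-injected mice and 0.03 for *Nfe2l2* with KD on chow. With KD on HFD, *Mt1* was 0.02 with edgeR, 0.02 with DESeq2 and 0.09 without both libraries that stand apart, and *Mt2* was 0.41, 0.42 and 0.26, 0.07 with quality weights and 0.74 with the replicate block. Without both libraries *Gclm* with KD on chow was -0.00 and *Hmox1* with HFD in KD mice 0.17. Without 1 library, 19 values changed sign, within ranges of -0.74 to 0.09 (*Mt1*, KD on HFD), -0.85 to 0.36 (*Mt2*, KD on HFD), -0.09 to 0.11 (*Nfe2l2*, KD on chow), -0.00 to 0.15 (*Gclm*, KD on chow), -0.18 to 0.32 (*G6pdx*, HFD in saline-injected mice), -1.44 to 0.23 (*Mt1*, the same), -1.57 to 0.92 (*Mt2*, the same) and -0.63 to 0.22 (*Hmox1*, HFD in KD mice). The main value of none of these was called. The cause was not tested. Over all genes, library totals called 4293 genes with HFD in saline-injected mice, 92.1% higher against 51.2%, and 82.7% higher against 50.1% in KD mice. With KD on HFD they called 114 in place of 356, 33.3% higher against 47.8%.

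The labels do not say whether replicate numbers pair the samples, and they were not treated as pairs in the main fit. The 16 same-number pairs of libraries correlated at -0.29 to 0.24 and 3 of them above 0.1. With 4 libraries per group such values cannot exclude a pairing. With the replicate block *Gclm* was called with KD on HFD (0.27, adjusted p 0.248) beside *Nqo1*. Counts of 5 to 85 limit *G6pdx* and *Nqo1*.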

Other observations

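The ratio of *Mt2* to *Mt1* in CPM was not fixed. It was 0.868 in Chow/FGFR4 KD 4, where both were highest, and 0.0869 in Chow 3 and 0.148 in Chow 4, where both were lowest and *Mt2* rested on 2 and 4 counts. In the HFD libraries it lay between 0.271 and 0.478 and in HFD/FGFR4 KD between 0.263 and 0.603, again with the highest ratio in the library with the highest *Mt1*. In Chow 1, Chow 2 and the first 3 Chow/FGFR4 KD libraries it lay between 0.383 and 0.668.

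Genes of the circadian clock, which sets the daily rhythm of many liver genes, were also counted. Of 11 tested, 10 were called with HFD in saline-injected mice, 6 higher and 4 lower, beside 13.3% and 12.7% of all genes. With HFD in KD mice 11 were called, 7 higher and 4 lower, beside 10.1% and 10.1% of all genes. With KD on HFD 4 were called, beside 3.14% of all genes. *Arntl* (1.55) and *Clock* (0.53) were higher and *Dbp* (-1.09) and *Per2* (-0.85) lower. Without HFD/FGFR4 KD 1 the count with KD on HFD was 1 higher and 0 lower. Without both libraries that stand apart it was 1 higher and 1 lower. The part of the clock genes in the levels of the 10 genes was not tested.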
